A study of Mus musculus with 58 samples.

Results

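Ribosome biogenesis genes encode the nucleolar proteins that transcribe ribosomal RNA, cut and modify it, and assemble it with ribosomal proteins. The 48 genes described here were chosen by symbol. They comprise 3 abundant nucleolar proteins, 4 proteins of the box C/D and 4 of the box H/ACA small nucleolar ribonucleoproteins (snoRNPs), 4 subunits of RNA polymerase I, 14 factors of the small and 16 of the large ribosomal subunit, and 3 other nucleolar proteins. Each of the 48 had 1 row in every bulk count table, among 20095 gene rows over those tables. RNA had been measured by CEL-seq, which counts the 3' ends of transcripts, in mouse small-intestinal organoids, cultures that grow from crypt stem cells and hold stem, Paneth, goblet, enteroendocrine, tuft and absorptive cells. The groups were organoids of the Bl/6 strain treated for 6 h or for 96 h, and cells sorted from reporter organoids, in 50 bulk libraries out of 58 samples. The other 8 samples, of single cells, were not used here.

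The treated cultures were given an EGFR inhibitor (Ei), a Mek inhibitor (Mi), both Wnt and Notch inhibition (ID), or ID together with either inhibitor (IDE and IDM). The untreated reference was the standard medium, ENR. Each of these 6 groups had 3 libraries at 6 h and 3 at 96 h. The sorted set held Dclk1+ cells with Ei or in ENR from a Dclk1-GFP line, Lgr5+ cells with Ei or in ENR from an Lgr5-GFP line and an Lgr5-DTR line, and whole organoids in ENR, with 2 libraries in each of its 7 groups. Inhibitor doses, and the length of treatment before sorting, were not given in the sources used here. Nothing in the labels says whether replicate libraries came from separate cultures or animals, so p-values measure the spread between these libraries. ENR, Ei and Mi carried 1 library set number and ID, IDE and IDM another at each time. ID against ENR thus cannot be told apart from library set. Set also changes with time, so levels at 96 h were not tested against levels at 6 h. Dclk1+ and Lgr5+ cells came from different reporter lines, so cell type cannot be told apart from line, also in the effect of Ei. The titles of the whole organoids of the sorted set name no line.

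EGFR passes growth factor signals through Mek to Erk, and this pathway is known to promote ribosome production, in part through the transcription factor Myc. Nucleolar factor genes are also known as targets of Myc, which binds the E-box sequence CACGTG. In the intestine, stem and transit-amplifying cells of the crypt make ribosomes and divide, while most mature cell types have left the cell cycle.

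Libraries held 448292 to 2763423 counts at 6 h and 668893 to 3599554 in the sorted set. Depth was uneven at 96 h, where Ei libraries were shallow, with 158135 to 554681 counts against 1425565 to 1738425 in ENR, so that 1 read was worth 1.68 to 6.07 CPM (the usual scaling of counts to a common library total) there and 0.566 to 0.699 CPM in ENR. Levels are CPM after TMM scaling, which corrects for differences in library composition. Changes are log2 ratios with standard errors from edgeR, and a gene is called when the p-value of the quasi-likelihood test, adjusted over all genes tested, is under 0.05. A lower level in a bulk library can mean fewer cells of a type or less RNA per cell, which cannot be told apart.

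The promoters of the 48 genes were searched for 2 motifs, the E-box CACGTG and TCTCGCGA, on both strands, in the RefSeq promoter table of build GRCm38.p6 (250 bases before to 50 after each start). The letters of these 2 motifs do not overlap. Promoters were found for 42 of the 48 genes, 46 promoters in all. CACGTG was present in 9 of these 46 promoters (19.6%), against 2349 of 32851 promoters of all genes (7.15%). TCTCGCGA was present in 4 of the 46 (8.7%), against 327 of all promoters (0.995%). The 9 genes with CACGTG were Imp4, Nop2, Grwd1, Ltv1, Utp20, Pes1, Mybbp1a, Tsr1 and Wdr43, and the motif lay before the start only in Imp4 and Nop2. Their sequences from RefSeq are given 5′ to 3′ on the gene's strand, to show where this motif lies in the genes whose levels are described below, with the motif in capitals.
Imp4, chr1:34439698-34439723, + strand: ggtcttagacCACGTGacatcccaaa
Nop2, chr6:125131813-125131838, + strand: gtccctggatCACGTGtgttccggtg
Grwd1, chr7:45830740-45830765, - strand: gccggagtcgCACGTGtgaaaccgga
Ltv1, chr10:13193094-13193119, - strand: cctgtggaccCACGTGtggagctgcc
Utp20, chr10:88826765-88826787, - strand: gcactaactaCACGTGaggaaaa
Pes1, chr11:3963967-3963992, + strand: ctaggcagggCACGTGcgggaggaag
Mybbp1a, chr11:72441357-72441376, + strand: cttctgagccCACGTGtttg
Tsr1, chr11:74898094-74898119, + strand: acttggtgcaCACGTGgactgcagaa
Wdr43, chr17:71616222-71616247, + strand: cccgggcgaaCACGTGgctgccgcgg
The motif began 121 bases before the start in Imp4 and 60 bases before it in Nop2. A match is a description of these letters and not a measured binding site.

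Some counts are uncertain because other genes share sequence with the members. Over the last 400 bases of their transcripts, 10 of the 48 matched other genes at 95% identity or more over at least 100 bases, among them Nop56 and Ddx18, each with 2 processed pseudogenes, and Dkc1, Nop58, Polr1b, Noc2l, Bysl, Tsr1, Wdr12 and Mybbp1a. Polr1b, whose levels are given below, matched 66 other genes, and Noc2l, the next, matched 8. The longest exon overlaps with a gene on the opposite strand were those of Tsr1, Noc2l, Bysl, Imp4, Polr1a and Heatr1 (155 to 1240 bases), and annotated exons of Ncl, Nop56, Nop58 and Gnl3 overlap small nucleolar RNAs on the same strand. Whether the authors' counting used strand was not given in the sources used here.

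After 6 h of EGFR inhibition, 41 of the 47 genes tested were lower than in ENR and 1 was higher, in a comparison in which 14.9% of all 9380 genes tested were lower and 13.3% were higher. Their median change was -1.44, against 0.03 for all genes. The summed level of the 48 genes was 4610 to 4960 CPM in the 3 Ei libraries, against 9030 to 9790 CPM in the 3 ENR libraries. Pwp2, a small subunit factor, had too few reads to be tested at 6 h.

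Among the abundant nucleolar proteins, Ncl (nucleolin, chromosome 1, 86344719 to 86359400 in mm10), which binds ribosomal RNA and its precursors, had 572.3, 564.6 and 645.2 CPM in Ei, against 1476, 1486 and 1404 CPM in ENR. The groups were far apart, and Ncl fell by 1.29 (SE 0.13, adjusted p = 1.1e-09). Npm1 (nucleophosmin), a chaperone of nucleolar assembly, had 1823, 1800 and 1807 CPM in Ei, against 2012, 2376 and 2266 CPM in ENR. These groups did not overlap, yet the change of -0.29 (SE 0.14) did not pass the test (adjusted p = 0.10). Nolc1, a nucleolar phosphoprotein that binds snoRNPs, fell by 1.85, with 84.2 to 102.0 CPM in Ei against 312.6 to 337.5 CPM in ENR.

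All 4 box C/D snoRNP genes were lower with Ei. These particles guide the methylation of ribosomal RNA, with fibrillarin (Fbl) as the methyltransferase and Nop56 and Nop58 as its core scaffold. Nop56 (chromosome 2, 130274430 to 130279313) had 142.8, 140.6 and 155.4 CPM in Ei, against 498.0, 467.5 and 529.4 CPM in ENR, and fell by 1.77 (SE 0.14, adjusted p = 2.4e-12). Nop58 fell by 1.98, Rrp9, which binds U3 snoRNA, by 1.88 and Fbl by 0.88. Fbl spanned 83.1 to 123.4 CPM in Ei and 176.9 to 233.0 CPM in ENR, so that its groups were also apart.

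The box H/ACA particles turn selected uridines of ribosomal RNA into pseudouridine. Dkc1 (dyskerin, chromosome X, 75095854 to 75109777), the pseudouridine synthase, had 49.2, 51.8 and 50.8 CPM in Ei, against 140.2, 154.9 and 144.2 CPM in ENR, and fell by 1.53 (SE 0.17, adjusted p = 6.2e-09). Gar1 fell by 1.41 and Nhp2 by 1.19. The exception was Nop10, the smallest protein of the core, with 80.9 to 130.8 CPM in Ei and 86.7 to 105.7 CPM in ENR. Its groups overlapped, and its change was 0.07 (adjusted p = 0.80).

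In RNA polymerase I, which transcribes ribosomal DNA, called genes went in both directions. Polr1a, the largest subunit, fell by 1.17, Polr1b, the second largest, by 1.44 and Polr1e by 1.11. Polr1b had 13.2, 13.9 and 6.84 CPM in Ei, against 26.9, 33.7 and 33.5 CPM in ENR. Polr1c, which RNA polymerase III also contains, was higher, with 158.4, 140.0 and 132.9 CPM in Ei against 100.3, 87.5 and 127.4 CPM in ENR (0.44, SE 0.16, adjusted p = 0.037). The highest ENR library was only just below the lowest Ei library, and the call was lost without replicate 1 or 2 of either group. Polr1e was not called without ENR replicate 3, Ei replicate 2 or Ei replicate 3.

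**Figure D1:**
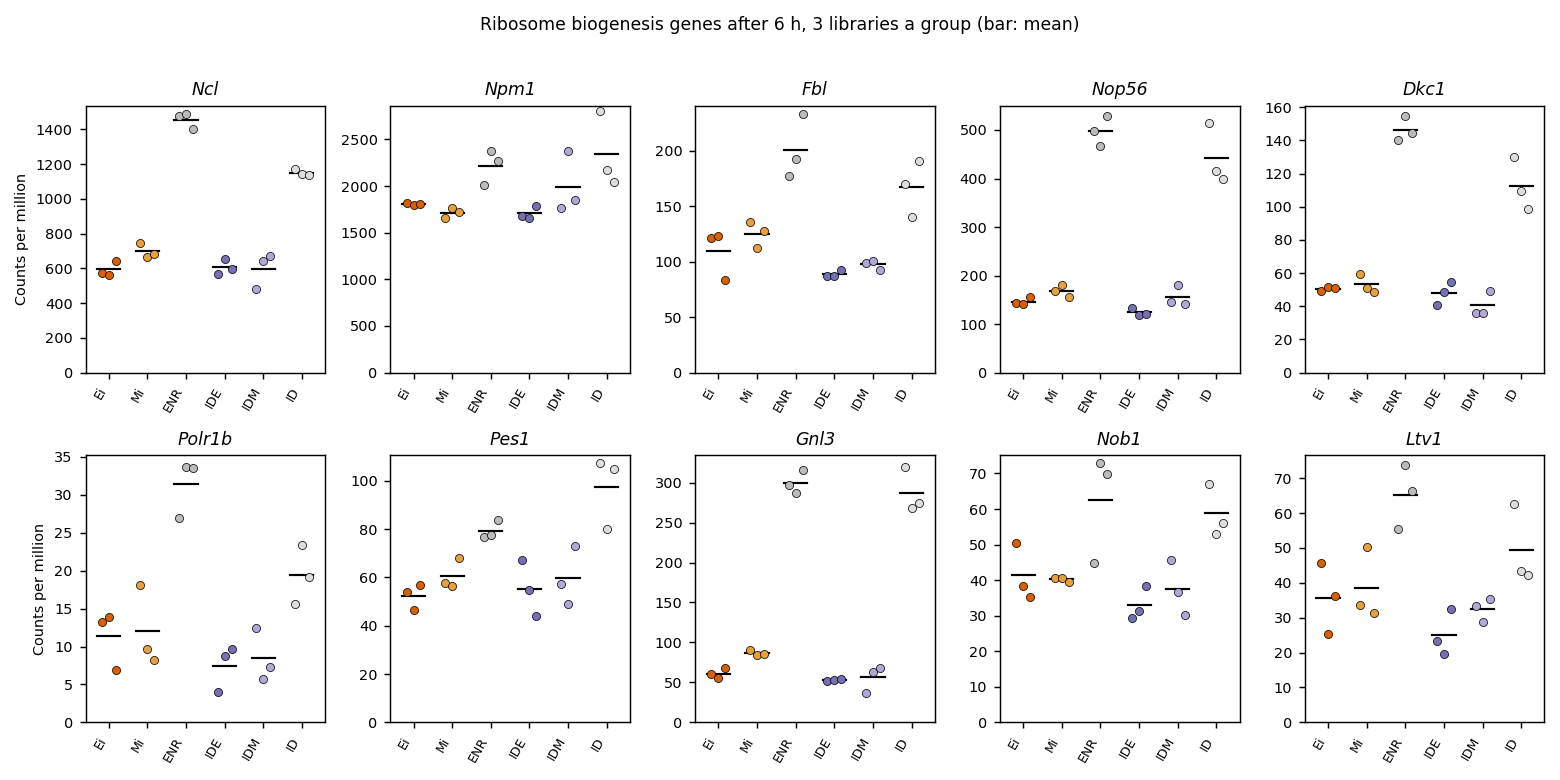
Level of 10 ribosome biogenesis genes after 6 h in CPM, 1 point per library and a bar at the mean of the 3 libraries of each group. In Ncl, Nop56, Dkc1 and Gnl3 the Ei and Mi libraries lie below all ENR libraries, and the IDE and IDM libraries below all ID libraries, while Npm1 overlaps between IDM and ID.

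Of the 13 small subunit factors tested, 11 were lower with Ei. Bysl, which acts in late small subunit assembly, fell by 2.02, with 4.80, 7.30 and 3.91 CPM in Ei against 22.8, 24.6 and 21.9 CPM in ENR, and Utp20 and Heatr1, both parts of the small subunit processome, fell by 1.75 and 1.69. Among the factors of late cytoplasmic steps, Tsr1 fell by 1.65, Ltv1 by 0.92 (25.2 to 45.6 CPM in Ei, against 55.4 to 73.8 CPM in ENR) and Nob1, the endonuclease that makes the 3' end of 18S rRNA, by 0.61 (adjusted p = 0.021). The Nob1 libraries overlapped, with 50.4, 38.5 and 35.2 CPM in Ei and 44.8, 72.9 and 69.9 CPM in ENR, and the call was lost without replicate 2 or 3 of either group. The U3 snoRNP proteins Imp3 and Imp4 did not pass the test at -0.41 (adjusted p = 0.13) and -0.28 (adjusted p = 0.33).

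Of the 16 large subunit factors, 15 were lower with Ei, and the largest changes of all 47 genes were among them. Gnl3 (nucleostemin, chromosome 14, 31012433 to 31019152), a nucleolar GTPase abundant in stem and dividing cells, had 59.99, 55.1 and 67.5 CPM in Ei, against 296.7, 287.1 and 316.1 CPM in ENR, and fell by 2.31 (SE 0.16, adjusted p = 2.9e-13). Rrp1b, a nucleolar protein of large subunit assembly, fell by 2.50, with 5.87 to 15.6 CPM in Ei against 52.0 to 65.5 CPM in ENR. Rrs1, known in yeast to help bring the 5S ribonucleoprotein to the growing subunit, fell by 2.17. Pes1 and Bop1, which form the PeBoW complex with Wdr12, had smaller changes, -0.61 for Pes1 (46.4 to 56.7 CPM in Ei, against 76.6 to 83.8 CPM in ENR) and -0.51 for Bop1, while Wdr12 fell by 1.63. Pes1 was not called without Ei replicate 2, nor Bop1 without ENR replicate 1 or 2 or Ei replicate 2 or 3. Nip7, which in yeast binds the large subunit precursor, was the exception at -0.44 (adjusted p = 0.054), with overlapping libraries of 181.1 to 334.3 CPM in Ei and 268.0 to 434.7 CPM in ENR.

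The 3 other nucleolar genes were also lower. The RNA helicase Ddx21 fell by 1.67, the Myb-binding protein Mybbp1a by 1.57 and Pinx1, an inhibitor of telomerase, by 0.93, a call that was lost without Ei replicate 2. Of the 42 calls with Ei at 6 h, 36 were made in every fit that left out 1 library. Ddx21 had 135.6, 193.7 and 190.6 CPM in Ei, against 566.5, 574.2 and 526.5 CPM in ENR.

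Mek inhibition for 6 h gave a similar list. Compared with the same ENR libraries, 43 of 47 genes were lower and none higher (12.9% of all genes were lower), with a median change of -1.28. Gnl3 had 90.7, 83.7 and 85.6 CPM in Mi, against 296.7, 287.1 and 316.1 CPM in ENR, and fell by 1.79. Ncl fell by 1.06, Nop56 by 1.57, Dkc1 by 1.46, Polr1b by 1.37, Fbl by 0.68, Ltv1 by 0.76 and Nob1 by 0.63. Npm1 was just past the threshold (1652 to 1761 CPM in Mi, against 2012 to 2376 CPM in ENR; -0.37, adjusted p = 0.041). Npm1 and Nob1 were called with all libraries and without ENR replicate 1, and in no other fit that left out 1 library, and Ltv1 was not called without Mi replicate 1 or 3. Of the 43 calls, 38 were made in every such fit. The genes that did not pass were Nop10, Polr1c, Imp3 (-0.51, adjusted p = 0.063) and Pes1 (-0.39, adjusted p = 0.12).

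Set directly against Ei, Mi differed in none of the 47 genes (0.0959% of all genes were called). At an unadjusted p under 0.05, 8 members differed, and DESeq2 also called none. The differences ranged from -0.82 for Polr1e to 0.71 for Tsr1, with a median of 0.10, and 13 of 47 were negative. Gnl3 was 0.52 higher in Mi than in Ei (SE 0.17, adjusted p = 0.41). Standard errors of these differences were about 0.13 for Npm1 and 0.53 for Grwd1, so small differences between the inhibitors were not detectable in the genes with few reads.

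After 6 h of Wnt and Notch inhibition alone, 1 gene was called. Tsr1 was lower in ID than in ENR, with 24.6, 29.6 and 31.1 CPM in ID against 57.9, 64.7 and 57.5 CPM in ENR (-1.03, SE 0.23, adjusted p = 0.031), and the other 46 genes did not pass the test, while 0.149% of all genes were lower. At an unadjusted p under 0.05, 13 members were past the threshold, and 40 of the 47 changes were below 0, with a median of -0.24. The call of Tsr1 was lost when any of the 6 ENR and ID libraries was left out, with 0 members called in each of these fits, and likewise with DESeq2 and with replicate number as a block.

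In the ID background the inhibitors again lowered the genes. IDE was lower than ID in 42 of 47 genes (12.5% of all genes were lower), with a median of -1.31, and IDM in 38, with 1 higher (10.9% of all genes were lower and 9.71% were higher), with a median of -1.28. Gnl3 had 51.8, 52.5 and 54.5 CPM in IDE and 37.2, 63.2 and 68.4 CPM in IDM, against 319.9, 267.9 and 274.3 CPM in ID, and fell by 2.42 in IDE and by 2.31 in IDM. Grwd1, whose yeast counterpart is a chaperone of a large subunit protein, fell by 2.65 in IDE and by 2.30 in IDM, from few reads (1.46 to 5.70 CPM in IDE, 3.29 to 7.62 CPM in IDM and 16.5 to 41.4 CPM in ID). Rrp12, in yeast an export factor of both subunits, fell by 2.36 in IDE and by 2.56 in IDM. Ncl fell by 0.92 in IDE and by 0.94 in IDM, Nop56 by 1.83 and 1.49, Dkc1 by 1.16 and 1.43, Fbl by 0.90 and 0.77, Pes1 by 0.84 and 0.67 and Nob1 by 0.75 and 0.63. Polr1b fell by 1.31 in both. Npm1 fell by 0.45 and Ltv1 by 0.82 in IDE. Left-out libraries ended the IDE call of Npm1 (ID replicate 1) and of Ltv1 (IDE replicate 2), and the IDM calls of Polr1b (ID replicate 2) and Nob1 (ID replicates 1 and 3, IDM replicates 2 and 3). Of the calls, 37 of 42 in IDE and 34 of 39 in IDM were made in every fit without 1 library.

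The exceptions in the ID background included genes that were exceptions without it. Nop10, Polr1c, Polr1e, Imp3 and Nip7 did not pass in IDE. Npm1, Nop10, Polr1e, Imp3, Ltv1, Tsr1, Nip7 and Pinx1 did not pass in IDM, where Polr1c was higher (159.1, 138.7 and 118.3 CPM in IDM, against 76.05, 110.2 and 96.1 CPM in ID; 0.51, adjusted p = 0.025). That call was lost without ID replicate 1 or 3 or IDM replicate 1 or 2. Across the 47 genes, the changes of IDE against ID and of Ei against ENR, which share no libraries, had a Pearson r of 0.84. The genes lower in both were 40, which is 95.2% of those lower in IDE and 97.6% of those lower in Ei. For IDM against ID and Mi against ENR, r was 0.84, and 37 genes were lower in both, 97.4% of those lower in IDM and 86% of those lower in Mi. These correlations are across genes, which are not independent replicates. As most of the 47 genes were lower in each comparison, most would be shared whichever genes they were. In tests of the difference itself, the Ei effect with ID against that without it passed the threshold in 0 of 47 members (3 at an unadjusted p under 0.05), and the Mi effect in 0 (2 at an unadjusted p under 0.05); 0% of all 9380 genes were called in either test, and DESeq2 called no member in them.

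Other ribosome biogenesis genes were lower with the same inhibitors. With Ei at 6 h, 23 of 38 other small subunit factors were lower and 32 of 41 other large subunit factors, with 1 higher. Of the other RNA polymerase I subunits and factors 9 of 14 were lower, and of the genes of snoRNP assembly and the exosome 12 of 18. The large subunit ATPase Mdn1 fell by 2.50, the 5' polynucleotide kinase Nol9 by 2.37, the H/ACA assembly factor Naf1 by 2.28 and the polymerase I subunit Cd3eap by 2.14. With Mi the counts in the same order were 19, 30 (with 1 higher), 7 and 11. In IDE against ID they were 18, 27, 5 and 10, and in IDM against ID 13, 29, 4 and 10, of the same numbers tested. Of all genes tested, 14.9% were lower with Ei, 12.9% with Mi, 12.5% in IDE and 10.9% in IDM.

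Myc was lower where these genes were lower at 6 h. It had 8.40, 37.2 and 33.2 CPM in Ei and 43.2, 51.1 and 35.9 CPM in Mi, against 101.1, 108.5 and 92.5 CPM in ENR (-1.84 and -1.21, adjusted p = 1.1e-06 and 0.00027). In IDE it had 15.2, 18.2 and 13.9 CPM and in IDM 21.0, 23.0 and 11.2 CPM, against 125.3, 73.7 and 65.1 CPM in ID. The 9 genes with CACGTG in the promoter had a median change of -1.57 in Ei against ENR, with 8 lower, and the 32 genes tested with a promoter without it -1.42, with 28 lower. In Mi against ENR these medians were -1.14, with 8 lower, and -1.31, with 29 lower. In IDE against ID they were -1.53, with 9 lower, and -1.31, with 27 lower, and in IDM against ID -1.35, with 7 lower, and -1.27, with 27 lower. At 6 h the median was thus lower for the genes with the motif in Ei, IDE and IDM and higher in Mi. For ID against ENR at 96 h the medians were -0.857 with the motif, with 6 of 8 lower, and -0.838 without it, with 14 of 29 lower. For Dclk1+ against Lgr5+ cells in ENR they were -1.16, with 5 of 9 lower, and -1.54, with 20 of 33 lower. None of these differences between genes with and without the motif was tested.

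Markers of other processes moved in the same libraries. Of the 12 S-phase genes listed, 11 were lower with Ei and 11 with Mi, and their sum was 884 to 995 CPM in Ei and 857 to 967 CPM in Mi, against 1970 to 2040 CPM in ENR. In IDE it was 807 to 1100 CPM and in IDM 978 to 1090 CPM, against 1540 to 2030 CPM in ID. The summed mitotic markers were 1240 to 1390 CPM in Ei, against 1380 to 1580 CPM in ENR, with 2 of 10 lower and 1 higher. Paneth markers summed to 2390 to 3660 CPM in Ei, against 1380 to 1860 CPM in ENR, with 6 of 6 higher, and goblet markers to 2020 to 2510 CPM in Ei, against 1230 to 1420 CPM in ENR. Their part in the changes of the ribosome biogenesis genes was not tested.

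**Figure D2:**
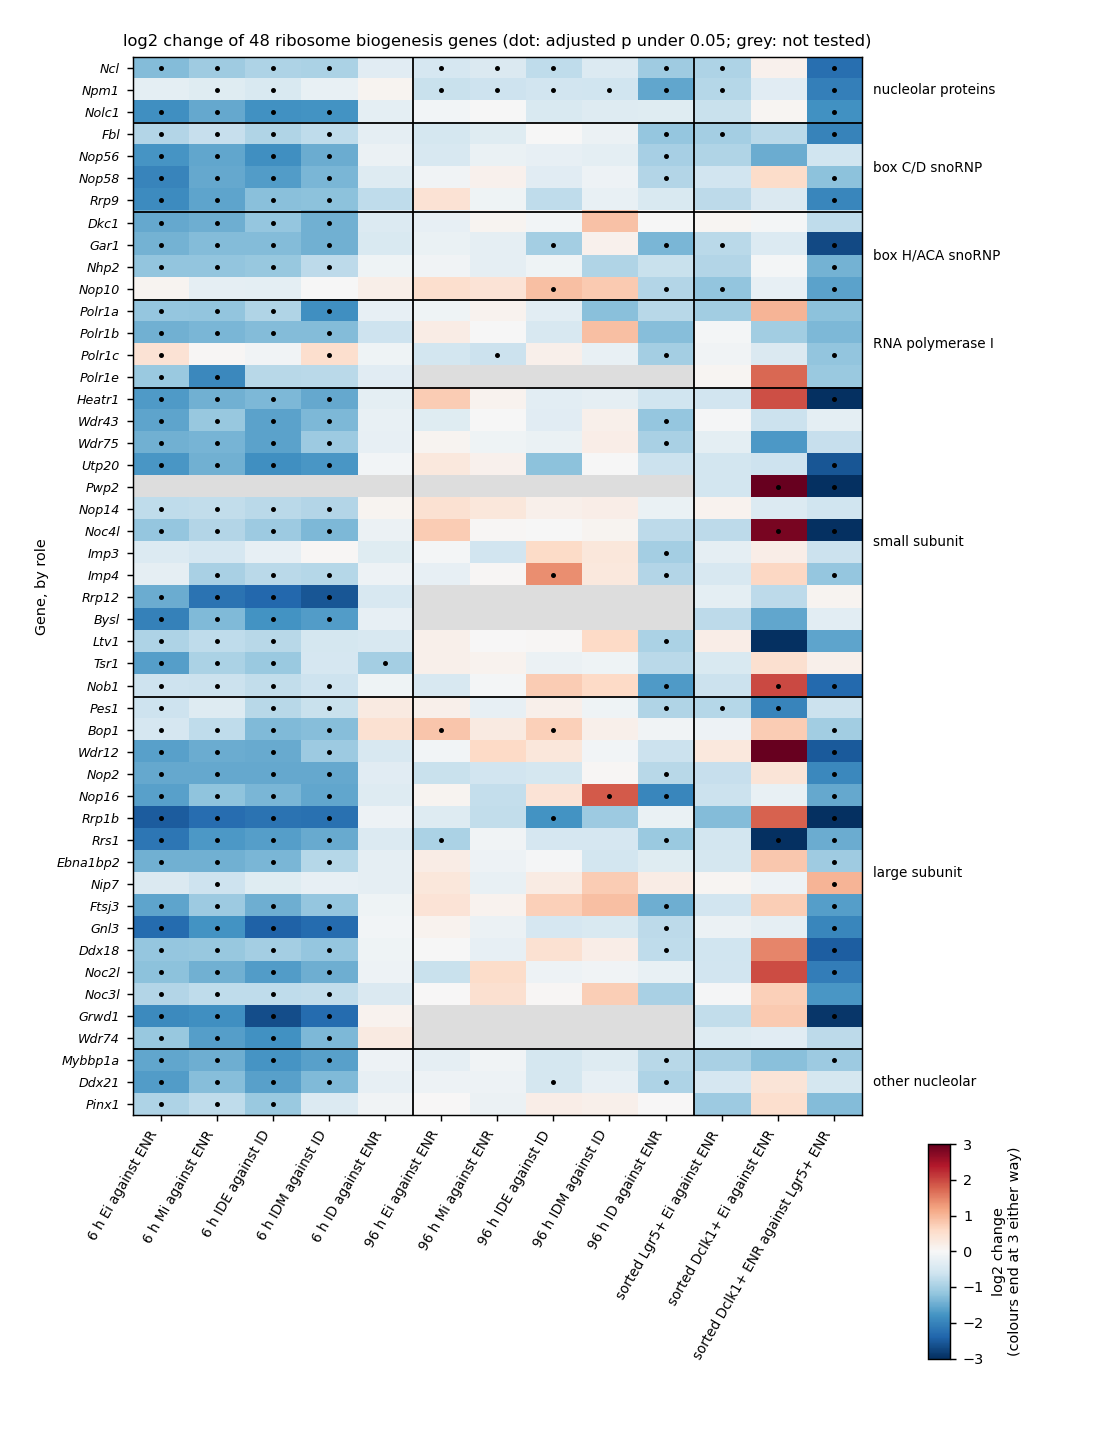
Change of each of the 48 genes in 13 comparisons as log2 ratios, with genes in rows by role, comparisons in columns, a dot where the adjusted p was under 0.05 and grey where a gene was not tested. The Ei, Mi, IDE and IDM columns at 6 h are blue in most rows, with 38 to 43 genes lower, and the Ei and Mi columns at 96 h are pale, with 3 lower in each.

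At 96 h, 42 of the 48 genes had enough reads to be tested, and Polr1e, Pwp2, Rrp12, Bysl, Grwd1 and Wdr74 did not. With Ei, 3 genes were lower and 1 higher than in ENR, where 8.92% of all 8135 genes tested were lower and 9.45% were higher. The median change was -0.07, and 23 of 42 changes were below 0. Ncl had 475.2, 539.2 and 705.1 CPM in Ei, against 778.3, 856.4 and 799.7 CPM in ENR (-0.51, SE 0.16, adjusted p = 0.025). Npm1, which had not passed at 6 h, had 1057, 1494 and 1358 CPM in Ei, against 1960, 2044 and 2165 CPM in ENR (-0.67, SE 0.18, adjusted p = 0.0063). In both genes the groups did not overlap.

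Rrs1 was the third gene lower with Ei at 96 h (36.03, 31.0 and 14.1 CPM in Ei, against 58.3, 52.7 and 59.4 CPM in ENR; -0.94, adjusted p = 0.032), and Bop1 was higher (80.6, 68.2 and 94.01 CPM in Ei, against 49.1, 47.8 and 40.4 CPM in ENR; 0.83, adjusted p = 0.014). Gnl3, the gene with the second largest change at 6 h, had 113.2, 154.9 and 230.3 CPM in Ei and 141.6, 156.1 and 144.8 CPM in ENR. Its Ei libraries lay on both sides of the ENR libraries (0.10, SE 0.22, adjusted p = 0.81). Of the other genes, Nop56 was at -0.48 (adjusted p = 0.099), Fbl at -0.52 (adjusted p = 0.13), Dkc1 at -0.25, Nob1 at -0.48, Polr1b at 0.23, Pes1 at 0.15 and Ltv1 at 0.15. The number of genes called was 1 without ENR replicate 3 and 2 without Ei replicate 1, against 4 with all libraries, and Npm1 alone was called in every fit that left out 1 library. Ncl was not called without ENR replicate 2 or 3 or Ei replicate 1, Rrs1 without ENR replicate 1 or 3 or Ei replicate 3, and Bop1 without ENR replicate 3 or Ei replicate 1 or 3.

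Mi at 96 h gave 3 lower genes and none higher (11.8% of all genes were lower), with a median of -0.105. Npm1 had 1266, 1458 and 1270 CPM in Mi against the 1960 to 2165 CPM of ENR and fell by 0.63 (SE 0.17, adjusted p = 0.0074). Ncl fell by 0.43 (adjusted p = 0.042), and Polr1c had 101.7, 60.2 and 57.9 CPM in Mi, against 111.0, 104.1 and 133.9 CPM in ENR (-0.66, adjusted p = 0.028). Only 1 gene was called without ENR replicate 1, without ENR replicate 3 or without Mi replicate 3, and 2 without ENR replicate 2, Mi replicate 1 or Mi replicate 2. Ncl was called in none of these 6 fits, and Polr1c in 2 of them, without ENR replicate 2 and without Mi replicate 1. Gnl3 was at -0.18 (adjusted p = 0.56). Set directly against Ei, Mi differed in 0 of 42 members (1.08% of all genes were called), with 3 at an unadjusted p under 0.05 and none by DESeq2.

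The difference between the inhibitor effect at 96 h and that at 6 h was tested in a fit of all 36 organoid libraries. The Ei effect differed in 27 of 47 genes, less negative at 96 h in 26 and lower at 96 h in 1 (5.45% of all 10137 genes tested were higher and 6.73% were lower), with a median difference of 1.21. The Mi effect was less negative at 96 h in 31 of 47 genes and lower in none (5.58% of all genes were higher), with a median difference of 1.12. For Gnl3 the difference was 2.36 with Ei (SE 0.27, adjusted p = 3.0e-09) and 1.59 with Mi. For Nop56 it was 1.25 with Ei and 1.35 with Mi, for Dkc1 1.24 and 1.52, and for Ncl 0.74 and 0.60. Mean ENR levels at 6 h and 96 h were 300 and 147 CPM for Gnl3 and 498 and 237 CPM for Nop56. They were 146 and 62.7 CPM for Dkc1 and 1460 and 811 CPM for Ncl. In the same order, Ei means were 60.8 and 166, 146 and 174, 50.6 and 55.8, and 594 and 573 CPM. Mi means were 86.7 and 131, 168 and 208, 53.2 and 66.7, and 698 and 601 CPM. In these levels time cannot be told apart from library set. With Ei 16 of the 27 calls, and with Mi 17 of the 31, were made in all 12 fits that left out 1 library, and for Ncl the calls were lost in 1 of these fits with Ei and in 8 with Mi.

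The genes with large differences in the Ei effect included Bysl at 2.90, Heatr1 at 2.46 and Rrp9 at 2.29. These values rest on few reads in the 96 h Ei libraries. Bysl had 16, 1 and 1 reads there, Heatr1 59, 9 and 7, and Rrp9 21, 4 and 4. Bysl had too few reads to be tested in the fit of the 96 h libraries alone. Polr1c had the opposite sign, with -0.55 at 96 h against 0.44 at 6 h, a difference of -1.02 (adjusted p = 0.015). Npm1 was at -0.41 (adjusted p = 0.22) and Fbl at 0.33 (adjusted p = 0.52), and Polr1b, Ltv1, Pes1 and Nob1 did not pass either, at 1.64, 1.03, 0.73 and 0.10. Across the 42 genes tested at both times, the Ei effects at 96 h and at 6 h had a Pearson r of 0.07, and the Mi effects -0.03. Library set changes with time, and the 96 h Ei libraries were shallower than those of ENR and Mi at 96 h. Set and depth thus move with this difference, as does the ENR level, and their part was not tested. The difference compares the effects within each set and not levels across sets. A less negative effect is thus not by itself a higher level under the inhibitor.

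**Figure D3:**
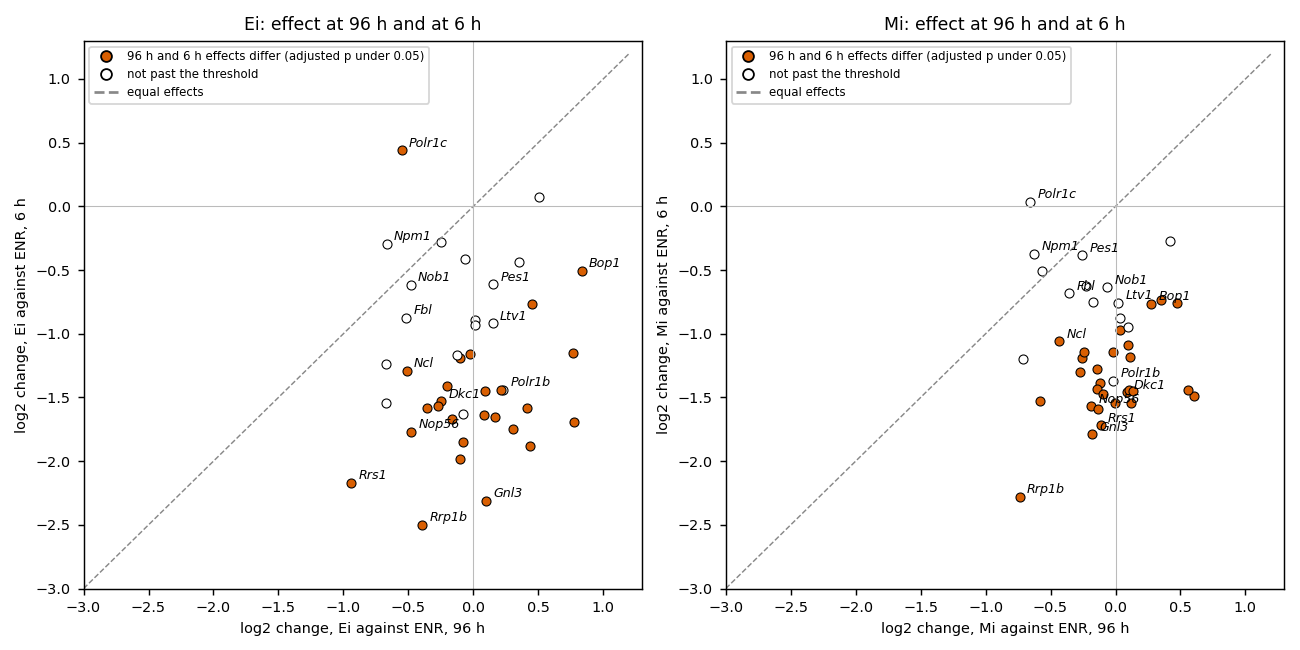
Inhibitor effect at 96 h (horizontal axis) and at 6 h (vertical axis) as log2 changes against ENR, for Ei on the left and Mi on the right, 1 point per gene for the 42 genes tested at both times. Orange points, where the effects differed, lie mostly below the dashed line of equal effects, and Gnl3 with Ei lies at 0.10 at 96 h and -2.31 at 6 h.

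At 96 h markers of several cell types differed with the inhibitors. Paneth markers summed to 26000 to 41100 CPM in Ei and 23200 to 24300 CPM in Mi, against 2240 to 2540 CPM in ENR. Enteroendocrine markers summed to 2730 to 3350 CPM in Ei, against 334 to 471 CPM in ENR, and mitotic markers to 419 to 527 CPM in Ei, against 1320 to 1450 CPM in ENR. Among the S-phase markers, Rrm2 had 29.17, 154.9 and 42.3 CPM in Ei, against 316.6, 258.1 and 298.9 CPM in ENR. Pcna and Mcm3 overlapped between Ei and ENR. Myc was still lower, with 63.5, 99.2 and 42.3 CPM in Ei and 67.8, 58.7 and 69.7 CPM in Mi, against 155.1, 144.8 and 162.7 CPM in ENR. The part of these cell types in the changes of the 42 genes was not tested. Of the other factors, Ei lowered 1 of 30 for the small subunit, 1 of 37 for the large subunit, 1 of 14 for RNA polymerase I and 0 of 12 for snoRNP assembly and the exosome at 96 h. Of all genes, 8.92% were lower there.

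Wnt and Notch inhibition for 96 h was followed by lower levels in 23 of 42 genes and higher levels in none, in a comparison in which 18.3% of all genes were lower. The median change was -0.86, and 40 of 42 changes were below 0. Npm1 had 800.4, 699.5 and 572.4 CPM in ID, against 1960, 2044 and 2165 CPM in ENR, and fell by 1.57 (SE 0.18, adjusted p = 2.4e-08). Ncl had 400.2, 367.8 and 395.4 CPM in ID, against 778.3, 856.4 and 799.7 CPM in ENR, and fell by 1.06. Neither gene had overlapping libraries.

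The genes with the largest changes in ID at 96 h were Nop16, a large subunit factor, at -1.96, Nob1 at -1.69, Npm1, Ftsj3, an rRNA methyltransferase, at -1.47, and Gar1 at -1.38. Nop16 had 3, 3 and 3 reads in the ID libraries and Ftsj3 had 6, 3 and 2, so these changes rest on few reads. Nob1 had 14.4, 16.4 and 11.3 CPM in ID, against 52.6, 36.6 and 44.4 CPM in ENR. Fbl fell by 1.16, Nop56 by 0.99, Ltv1 by 0.96, Pes1 by 0.90 and Gnl3 by 0.79. Of the 23 calls, 14 were made in every fit without 1 library, with Ftsj3 lost without ENR replicate 2 or ID replicate 3 and Ltv1 without ID replicate 3. Dkc1 was at 0.00 (62.1 to 62.8 CPM in ID and 55.5 to 75.9 CPM in ENR) and Polr1b at -1.28 (adjusted p = 0.074), with 3.59 to 13.1 CPM in ID. Of the other factors, 14 of 30 for the small subunit were lower with 1 higher, 12 of 37 for the large subunit with 1 higher, 4 of 14 for RNA polymerase I and 3 of 12 for snoRNP assembly and the exosome. Of all 8135 genes tested, 1492 were lower and 1605 higher.

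Goblet markers summed to 22400 to 40900 CPM in ID, against 1170 to 1520 CPM in ENR at 96 h, enterocyte markers to 8490 to 11100 CPM, against 1210 to 1300 CPM, and stem markers to 374 to 494 CPM, against 1380 to 1470 CPM. Myc had 53.8, 36.1 and 37.7 CPM in ID, against the 144.8 to 162.7 CPM of ENR (-1.82). Mitotic markers were also lower in ID than in ENR, among them Mki67 with 80.76, 42.69 and 65.91 CPM against 212.7, 286.9 and 306.4 CPM. Of the S-phase markers, Mcm7 had 35.89, 26.27 and 45.19 CPM in ID, against 145.1, 153.3 and 125.2 CPM in ENR, while Pcna overlapped. Enteroendocrine markers were higher, among them Chgb with 3171, 2529 and 1904 CPM in ID against 314.4, 217.3 and 283.9 CPM in ENR. The part of these cell types, of cell division and of library set in the lower levels was not tested.

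Adding an inhibitor to ID for 96 h moved few genes. In IDE, 5 genes were lower and 3 higher than in ID (13.1% of all genes were lower and 10.8% were higher). Ncl had 221.5, 212.9 and 254.9 CPM in IDE, against 400.2, 367.8 and 395.4 CPM in ID (-0.77, adjusted p = 0.0013), and Rrp1b had 5.68, 9.90 and 7.73 CPM in IDE, against 25.1, 32.8 and 30.1 CPM in ID (-1.79, adjusted p = 0.0048). Npm1, Gar1 and Ddx21 were also lower, at -0.58, -1.02 and -0.52. Imp4 was higher, with 62.5, 67.3 and 85.0 CPM in IDE against 30.5, 9.85 and 33.9 CPM in ID (1.39, adjusted p = 0.002), as were Nop10 (0.91) and Bop1 (0.71). The count of 8 genes was 4 without ID replicate 1, ID replicate 3 or IDE replicate 2, and 5 without ID replicate 2, and Ncl, Rrp1b and Imp4 were called in all 6 of these fits. In IDM, Npm1 was lower (-0.59, adjusted p = 0.033) and Nop16 higher (1.83, adjusted p = 0.041), where 8.15% of all genes were lower and 5.37% were higher. The 3 IDM libraries of Nop16 differed widely, with 48.9, 15.4 and 11.4 CPM against 5.38, 9.85 and 5.65 CPM in ID. The count of 2 was 0 without IDM replicate 1 and 1 without any of the 3 ID libraries.

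Markers of several cell types differed in the same libraries. Mitotic markers summed to 56.6 to 92.8 CPM in IDE and 87.2 to 206 CPM in IDM, against 214 to 456 CPM in ID, with 8 of 9 tested lower in IDE and 6 in IDM. Goblet markers summed to 9860 to 14900 CPM in IDE and 7000 to 7680 CPM in IDM, against 22400 to 40900 CPM in ID, with 5 of 6 lower in each. Enterocyte markers summed to 3700 to 5340 CPM in IDE and 3870 to 4470 CPM in IDM, against 8490 to 11100 CPM in ID, with 4 of 6 lower in each. Enteroendocrine markers summed to 5680 to 8160 CPM in IDE and 11200 to 12100 CPM in IDM, against 3000 to 4900 CPM in ID, with 3 of 6 higher in IDE and 4 in IDM and 1 lower in each. Tuft markers summed to 95.3 to 114 CPM in IDE and 244 to 292 CPM in IDM, against 29.6 to 71.8 CPM in ID. The part of these cell types in the changes of the ribosome biogenesis genes was not tested.

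The effect of Ei at 96 h differed with ID in 1 gene, Imp4, at 1.63 higher (adjusted p = 0.014; 6.28% of all genes were higher), and the effect of Mi in 1 gene, Nop16, at 2.54 higher (adjusted p = 0.025; 2.35% of all genes were higher). Nop16 had few reads, with 3, 3 and 3 in the ID libraries and 11, 5 and 3 in the IDM libraries. Nop16 was not called without ID replicate 1, ID replicate 3 or IDM replicate 1, and 2 genes were called without Mi replicate 3. Ncl, Npm1, Gnl3 and the other followed genes did not pass in either test.

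In the sorted set, the labels were set against marker genes. Dclk1+ cells in ENR had summed tuft markers of 4320 to 4340 CPM, against 10.8 to 11.6 CPM in whole organoids, with 6 of 6 higher. Lgr5+ cells in ENR had 32.6 to 58.3 CPM of Lgr5, against 40.7 to 48.5 CPM in whole organoids, so that Lgr5 itself overlapped. The summed stem markers did not overlap, at 604 to 677 CPM in the Lgr5-GFP line and 612 to 666 CPM in the Lgr5-DTR line, against 443 to 468 CPM in whole organoids. In Lgr5+ cells 6 of 6 enterocyte and 5 of 6 enteroendocrine markers were lower. Of the blood cell markers, Ptprc had 83.2 and 25.7 CPM in Dclk1+ cells in ENR, and Cd3e was at 0 there. The 2 libraries of Dclk1+ cells in ENR differed in summed Paneth markers, at 180 and 2330 CPM, and in Lgr5, at 13.6 and 68.7 CPM.

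EGFR inhibition lowered 6 of the 48 genes in Lgr5+ cells, taking both reporter lines together, and raised none (2.06% of all 10325 genes tested were lower). The median change was -0.57, against 0.03 for all genes, and 42 of 48 changes were below 0. Nop10, an exception in whole organoids at 6 h, had 117.5 and 87.2 CPM in Ei, against 326.9 and 384.4 CPM in ENR, in the Lgr5-GFP line. In the Lgr5-DTR line it had 228.0 and 208.8 CPM in Ei, against 332.6 and 310.5 CPM in ENR. Every Ei library was below every ENR library, and Nop10 fell by 1.18 (SE 0.20, adjusted p = 0.0016).

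Npm1 had 206.5 and 264.4 CPM in Ei, against 432.5 and 436.8 CPM in ENR, in the Lgr5-GFP line, and 301.1 and 229.5 CPM in Ei, against 460.8 and 463.9 CPM in ENR, in the Lgr5-DTR line (-0.84, adjusted p = 0.011). Ncl fell by 0.92, Fbl by 1.01, Gar1 by 0.80 and Pes1 by 0.85. Nop56 was at -0.90 (adjusted p = 0.20), Gnl3 at -0.17 (adjusted p = 0.86), Nob1 at -0.65, Dkc1 at 0.05, Polr1b at -0.07 and Ltv1 at 0.19. The count of 6 was lower in every fit that left out 1 library, and Nop10 alone was called in all 8. It was 1 without Lgr5-GFP Ei replicate 1 or Lgr5-DTR Ei replicate 2, 2 without Lgr5-GFP Ei replicate 2 or replicate 1 of either ENR group, and 3 without Lgr5-DTR Ei replicate 1 or replicate 2 of either ENR group.

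Summed over the 48 genes, Ei libraries of the Lgr5-GFP line had 3110 and 3250 CPM, against 5040 and 5380 CPM in ENR, and those of the Lgr5-DTR line 3650 and 4090 CPM, against 5700 and 5990 CPM in ENR. The effect of Ei did not differ between the 2 lines in any of the 48 genes (0% of all genes were called), with 2 members at an unadjusted p under 0.05 and none by DESeq2. Myc was at -0.01 with Ei in Lgr5+ cells. Mitotic markers summed to 619 to 976 CPM in Ei, against 1470 to 2040 CPM in ENR over both lines, and tuft markers to 87.8 to 196 CPM in Ei, against 29 to 80.2 CPM in ENR. Enterocyte markers summed to 394 to 546 CPM in Ei, against 172 to 328 CPM in ENR, with 4 of 6 higher. Stem markers summed to 976 to 1230 CPM in Ei, against 604 to 677 CPM in ENR, with 1 of 5 tested higher, and goblet markers to 128 to 283 CPM in Ei, against 400 to 646 CPM in ENR, with 2 of 6 lower. S-phase markers summed to 1040 to 1160 CPM in Ei, against 1600 to 1700 CPM in ENR, and none of the 12 passed the test. Their part in the changes was not tested. Of the genes lower with Ei in Lgr5+ cells, 4 were lower with Ei at 6 h, which is 66.7% of the 6 and 9.76% of the 41. As 41 of the 47 genes tested at 6 h were lower, this overlap is not more than that of the members as a whole. The changes had a Pearson r of 0.14 across 47 genes.

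**Figure D4:**
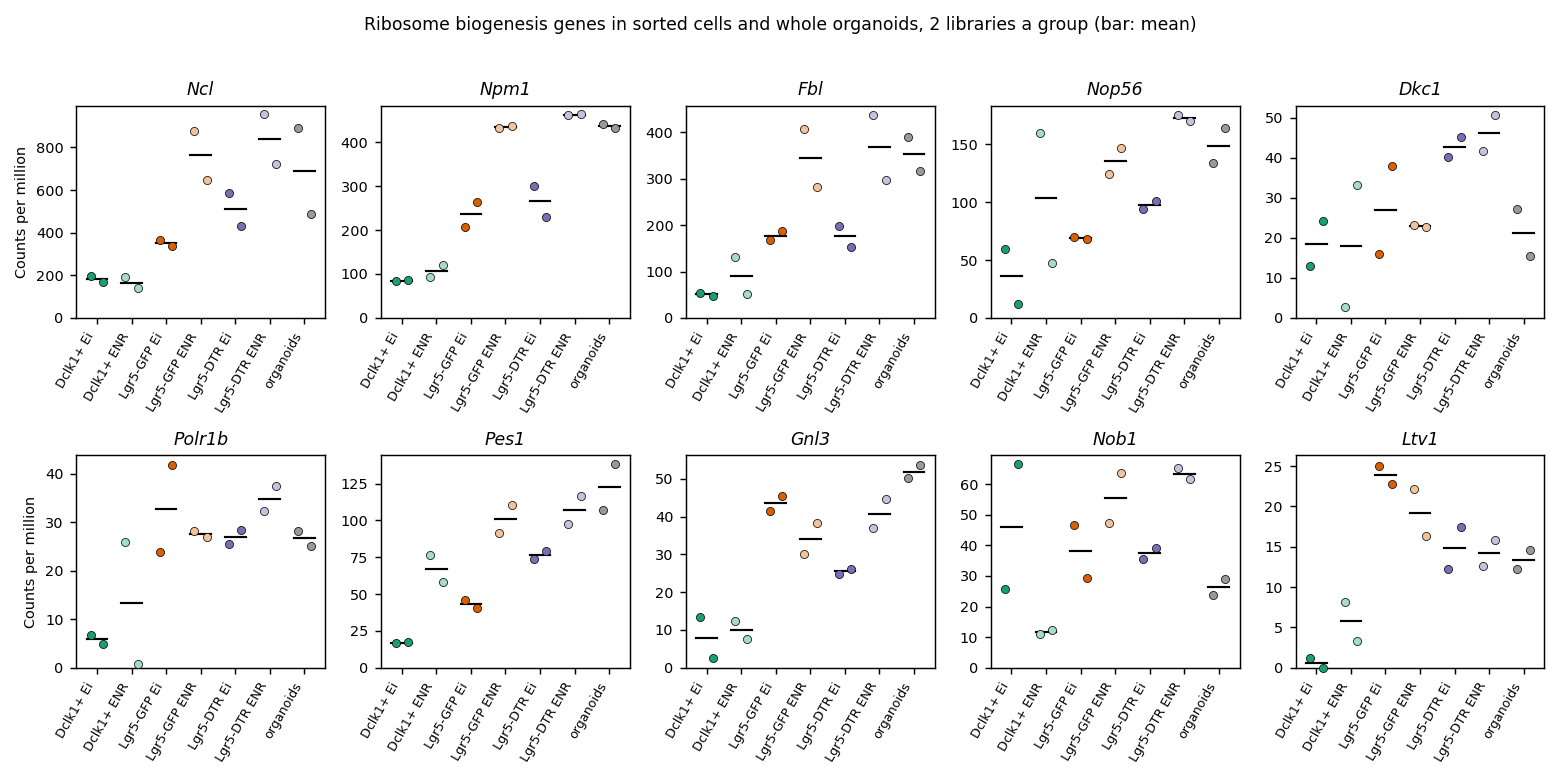
Level of 10 ribosome biogenesis genes in the sorted set in CPM, 1 point per library and a bar at the mean of the 2 libraries of each group. In Ncl, Npm1 and Fbl the Lgr5+ Ei libraries of each line lie below its ENR libraries, and the Dclk1+ libraries below all Lgr5+ libraries.

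In Dclk1+ cells with Ei, 2 genes were lower and 3 higher than in ENR (2.24% of all genes were lower and 1.1% were higher), from few reads. Rrs1 had 2 and 2 reads in Ei (1.22 and 1.24 CPM), against 19 and 74 reads in ENR (25.9 and 61.3 CPM), a ratio of 0.0256 with an exact 95% counting interval of 0.00683 to 0.0678 (adjusted p = 0.00012). Pes1 had 16.5 and 17.3 CPM in Ei, against 76.4 and 58.0 CPM in ENR (-1.98, adjusted p = 0.0057). Noc4l, a small subunit factor, had 35 and 41 reads in Ei, against 4 and 2 reads in ENR (2.84, adjusted p = 0.015), and Nob1 had 25.7 and 66.7 CPM in Ei, against 10.9 and 12.4 CPM in ENR (1.97, adjusted p = 0.044). Pwp2 had 16 and 11 reads in Ei, against 0 and 1 in ENR, a ratio of 16.1 with a counting interval of 2.65 to 658 (adjusted p = 0.045). The call of Pwp2 was lost in all 4 fits that left out 1 library, that of Nob1 without Dclk1+ ENR replicate 1 or 2 or Dclk1+ Ei replicate 2, and that of Noc4l without Dclk1+ ENR replicate 2. The intervals cover counting error only.

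Ncl was at 0.13 with Ei in Dclk1+ cells (195.0 and 166.7 CPM in Ei, 189.6 and 142.4 CPM in ENR), and Npm1 at -0.34, Fbl at -0.81, Nop56 at -1.50, Dkc1 at -0.05, Polr1b at -1.05, Gnl3 at -0.26 and Ltv1 at -3.01 (adjusted p = 0.10) did not pass either. Left out in turn, Dclk1+ ENR replicate 2 changed the result to 5 lower and 3 higher genes, of which 2 were among the 5 called with all libraries. In such a fit 1 library stands for its group and is assumed to vary like the libraries of the other groups. With replicate number as a block, 2 genes were lower and 1 was higher. The effect of Ei differed between Dclk1+ and Lgr5+ cells in 3 genes, lower in Dclk1+ cells in Rrs1 (-4.55, adjusted p = 0.0027) and higher in Noc4l (3.62, adjusted p = 0.018) and Nob1 (2.62, adjusted p = 0.043), where 0.852% of all genes were lower and 0.407% were higher. That count was 6 without Dclk1+ ENR replicate 1 and 7 without Dclk1+ ENR replicate 2, and Nob1 was not called in 10 of the 12 fits that left out 1 library.

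Markers also differed between Dclk1+ cells with Ei and in ENR. Mitotic markers summed to 53.7 and 72.8 CPM in Ei, against 119 and 421 CPM in ENR, with 3 of 10 lower, and S-phase markers to 89.9 and 138 CPM in Ei, against 151 and 180 CPM in ENR, with 3 of 12 lower and 1 higher. Goblet markers summed to 71.6 and 124 CPM in Ei, against 119 and 849 CPM in ENR, with 2 of 6 lower, and Paneth markers to 110 and 612 CPM in Ei, against 180 and 2330 CPM in ENR, with 1 of 6 lower. Of the 6 enterocyte markers 2 were lower, with sums of 462 and 678 CPM in Ei, against 555 and 651 CPM in ENR. Stem markers summed to 338 and 406 CPM in Ei, against 230 and 239 CPM in ENR, and none of the 5 tested passed. Their part in the changes was not tested.

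Without inhibitor, Dclk1+ cells had lower levels than Lgr5+ cells in 29 of 48 genes and a higher level in 1 (19.4% of all genes were lower and 18.9% were higher), with a median of -1.45. The reporter line differs along with the cell type in this comparison, and its part cannot be told apart. Ncl had 189.6 and 142.4 CPM in Dclk1+ cells, against 878.1 and 647.1 CPM in the Lgr5-GFP line and 955.4 and 723.0 CPM in the Lgr5-DTR line (-2.27, SE 0.30, adjusted p = 1.9e-05). Npm1 had 92.8 and 120.9 CPM in Dclk1+ cells, against 432.5 to 463.9 CPM in Lgr5+ cells (-2.06). Both genes were well apart. Heatr1 was lower by 4.13 on the log2 scale, with 12.3 and 3.31 CPM in Dclk1+ cells against 111.6 to 143.1 CPM in Lgr5+ cells, Noc4l had 5.46 and 1.66 CPM against 43.2 to 70.4 CPM (-4.12), and Grwd1 had 10.9 and 16.6 CPM against 87.5 to 134.9 CPM (-2.91).

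Gar1 fell by 2.70 in Dclk1+ cells relative to Lgr5+ cells, Nob1 by 2.33, Fbl by 2.00 and Gnl3 by 1.96 (12.3 and 7.45 CPM in Dclk1+ cells, against 30.2 to 44.7 CPM in Lgr5+ cells). Pwp2 had 0 and 1 reads in Dclk1+ cells, against 30 to 77 reads in Lgr5+ libraries. Nip7 was the gene with a higher level, at 345.1 and 217.8 CPM in Dclk1+ cells, against 117.5 to 158.8 CPM in Lgr5+ cells (1.03, adjusted p = 0.014). Its call was lost without Lgr5-GFP ENR replicate 2, Lgr5-DTR ENR replicate 2 or Dclk1+ ENR replicate 1, and that of Gnl3 without Dclk1+ ENR replicate 2. Nop56 (159.6 and 47.2 CPM in Dclk1+ cells), Dkc1 (2.73 and 33.1 CPM) and Polr1b (25.9 and 0.83 CPM) did not pass the test, with wide spread between the 2 Dclk1+ libraries, nor did Pes1 (-0.64) and Ltv1 (-1.59, adjusted p = 0.070). Of the 30 calls, 13 were made in every fit that left out 1 library.

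The files of the whole organoids list 15984 gene rows and those of the sorted cells 15746. The labels give no library set for either, and the titles of the whole organoids name no reporter line. Sorted cells against organoids thus cannot be told apart from a possible difference in set or line, or from the sorting step itself. Relative to whole ENR organoids, Dclk1+ cells were lower in 19 genes and higher in 2 (17.1% of all genes were lower and 13.2% were higher), with a median of -1.17, against -0.14 for all genes. The higher genes were Nip7, with 345.1 and 217.8 CPM in Dclk1+ cells against 75.95 and 49.9 CPM in organoids, and Ddx21, with 140.5 and 557.3 CPM against 123.5 and 109.5 CPM. Whole organoids in ENR differed in these genes between sets, in levels scaled in separate fits. Mean Nip7 was 62.9 CPM in the sorted set, 343 CPM at 6 h and 424 CPM at 96 h. In the same order, mean Ddx21 was 116, 556 and 282 CPM, and mean Npm1 437, 2220 and 2060 CPM. Both higher calls thus refer to the organoids of the sorted set only. The 2 Dclk1+ libraries of Ddx21 were far apart, and its call was lost without Dclk1+ ENR replicate 2 or without organoid replicate 2. Ncl fell by 2.06, Npm1 by 2.03, Fbl by 1.99, Gnl3 by 2.43 and Heatr1 by 3.46. Pes1 fell by 0.88, a call lost without Dclk1+ ENR replicate 2 or either organoid library, and Nop56, Dkc1, Polr1b, Nob1 and Ltv1 did not pass. The count of 21 was 14 without either organoid library, and 9 of the 21 calls were made in every fit that left out 1 library.

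Lgr5+ cells in ENR were higher than whole organoids in 5 genes and lower in none (5.54% of all genes were higher). Gar1 had 374.2, 334.2, 400.2 and 310.5 CPM in Lgr5+ cells, against 118.8 and 74.4 CPM in organoids (1.87, adjusted p = 3.0e-04). Ddx21 had 360.4 to 803.3 CPM in Lgr5+ cells, against 123.5 and 109.5 CPM in organoids (2.11), and Nop10, Rrs1 and Nip7 were higher by 1.37, 1.38 and 1.13. For Nip7 and Ddx21 the means of these organoids were below those of ENR organoids at 6 h and 96 h, as given above. Mean Rrs1 was 48.2 CPM in these organoids, 118 CPM at 6 h and 56.8 CPM at 96 h. In the same order, mean Gar1 was 96.6, 163 and 94.2 CPM, and mean Nop10 131, 98.1 and 72.2 CPM. Ncl, Npm1, Fbl, Nop56, Gnl3 and the other followed genes did not pass. The count of 5 was 3 without organoid replicate 1 and 2 without organoid replicate 2.

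S-phase markers moved with these differences between cells. They summed to 151 to 180 CPM in Dclk1+ cells in ENR, against 1600 to 1700 CPM in Lgr5+ cells over both lines and 1120 to 1130 CPM in organoids, with 12 of 12 lower in Dclk1+ than in Lgr5+ cells. Myc had 0 and 3.31 CPM in Dclk1+ cells, against 21.2 to 44.3 CPM in Lgr5+ cells. Of the other ribosome biogenesis factors, 9 of 39 for the small subunit were lower in Dclk1+ than in Lgr5+ cells and 2 higher, 13 of 41 for the large subunit were lower and 1 higher, 4 of 14 for RNA polymerase I were lower, and 7 of 18 for snoRNP assembly and the exosome were lower and 1 higher, where 19.4% of all genes were lower and 18.9% were higher. The part of cell division in these differences was not tested.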

How the data were processed

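RNA of 50 bulk libraries had been sequenced by CEL-seq per the labels' protocols. The authors deposited raw counts per gene, made by alignment with BWA 0.6.2-r126 to mm10 per the submitters' processing notes. Counts were used as deposited. Libraries were grouped by their titles.

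Genes were filtered (filterByExpr) and scaled (TMM), and tested with the quasi-likelihood test of edgeR 4.0.16 in R 4.3.3, with p-values adjusted over all genes tested (Benjamini-Hochberg, 0.05). There were 4 fits, of the 6 h libraries (18), the 96 h libraries (18), both (36) and the sorted set (14), and 25 comparisons. The fits were tested on simulated data. Alternatives were DESeq2's size factors, no filter on low counts, DESeq2 1.42.0, replicate number as a block, leaving out each library (50 fits) and, at 96 h, thinning to 158135 counts.

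The 48 genes, the other gene lists, the motifs and the tests were chosen with earlier results of these data known. Ncl, Npm1, Fbl, Nop56, Dkc1, Polr1b, Pes1, Gnl3, Nob1 and Ltv1 were followed in every comparison that tests them. Each comparison adds up to 5 lower and 5 higher genes of largest change among the called ones whose higher group reached 20 CPM. Pwp2 in Dclk1+ cells with Ei was below that level and was named after its values were seen. Exceptions were named where a role group had 1 to 4. Other lists are given as counts with up to 3 genes. Transcript ends were compared with BLAST+ 2.17.0. Replicates differed by more than sampling noise (chi-square per degree of freedom 1.74 to 19.4 over 43 pairs).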

Additional observations from a re-analysis of the deposited data

Results flagged for a closer look

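The effect of an inhibitor differed between times in 27 of 47 genes for Ei and in 31 of 47 for Mi, by tests of the difference itself. For Ei, 26 were higher, where 5.45% of all genes were, and 1 was lower, where 6.73% were. For Mi all 31 were higher, where 5.58% of all genes were. For Ei the difference between the 96 h and the 6 h effect was 2.36 in Gnl3, 1.25 in Nop56, 1.24 in Dkc1 and 0.743 in Ncl on the log2 scale. For Mi it was 1.59 in Gnl3, 1.35 in Nop56, 1.52 in Dkc1 and 0.602 in Ncl. The inhibitor effect at 96 h differed with ID in 1 of 42 genes for Ei (Imp4) and in 1 of 42 for Mi (Nop16), both higher. Of all genes, 6.28% were higher for Ei and 2.35% for Mi, so these counts were near or below the share of all genes. The call of Nop16 was not made in every fit that left out 1 library. Between Dclk1+ and Lgr5+ cells the effect of Ei differed in 3 of 48 genes (Rrs1, Noc4l and Nob1), by 2.62 in Nob1. Of all genes, 0.852% were lower and 0.407% were higher. The call of Nob1 was lost in most of the fits that left out 1 library.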

How the results depend on the processing

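Thinned to equal totals, the 96 h libraries gave 1 gene called for Ei (4 at full depth), 1 for Mi (3), 11 for ID (23), 1 for IDE against ID (8), 0 for IDM against ID (2) and 0 for the effects of Ei and of Mi with ID against without (1 each), so depth limits what these libraries can show. Without a filter on low counts, 5 genes were called for IDE against ID at 96 h, 2 for the Mi effect with ID against without, 8 for Dclk1+ Ei against ENR and 7 for the Ei effect in Dclk1+ against Lgr5+ cells. DESeq2 gave 5 for IDE against ID and 1 for IDM against ID at 96 h, 6 for the Ei effect in Dclk1+ against Lgr5+ cells and 0 for ID against ENR at 6 h. With replicate number as a block, the counts were 0 for ID against ENR at 6 h and 3 for Dclk1+ Ei against ENR, 2 lower and 1 higher. Nothing in the labels says that replicate numbers pair the samples, and no 2 groups at 6 h or 96 h had every correlation over 0.1 (range -0.0876 to 0.161). In the sorted set, with 2 numbers, 2 of 21 pairs of groups did (highest 0.115), and for Dclk1+ Ei and ENR it was 0.0152. The cause of these shifts was not tested, apart from the thinning.

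Leaving out 1 library gave 36 to 42 calls for Ei and 39 to 43 for Mi at 6 h, 39 to 42 for IDE, 35 to 39 for IDM and 0 for ID. At 96 h it gave 1 to 4 calls for Ei, 1 to 2 for Mi, 18 to 22 for ID, 4 to 6 for IDE, 0 to 2 for IDM, and 1 and 0 to 2 for the Ei and Mi effects with ID against without. The effects at 96 h against 6 h gave 19 to 28 calls for Ei and 22 to 27 for Mi. In the sorted set, where it left 1 library in a group that was assumed to vary like the others, it gave 1 to 3 for Lgr5+ Ei, 5 to 8 for Dclk1+ Ei, 2 to 5 for Lgr5+ cells against organoids, 14 to 23 for Dclk1+ cells against organoids, 24 to 25 for Dclk1+ against Lgr5+ cells and 2 to 7 for the Ei effect in Dclk1+ against Lgr5+ cells. Without Dclk1+ ENR replicate 2, Dclk1+ Ei had 8 calls, 5 lower and 3 higher. With 2 libraries a group, small changes in the sorted set can be missed. Over all alternatives, 247 counts stayed within 1.5 times the count given, 51 did not, and 2 (both for Dclk1+ Ei) turned the balance of lower and higher genes round. Of the single-gene results 713 kept their direction and side of the threshold, 108 lost their call and 0 reversed. DESeq2's size factors moved the median of all genes for Dclk1+ cells against organoids to -0.05, where 17 genes were lower and 2 higher.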
